A study of Mus musculus with 2 samples.

Results

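The Mir322 and Mir503 cluster is a row of microRNA hairpins on the mouse X chromosome, named for its 2 best studied genes. Its members were taken as the rows of the deposited count tables whose Ensembl identifiers belong, in GENCODE M21, to Mir322, Mir503, Mir351, Mir542, Mir450b and the copies Mir450-1 and Mir450-2, which both encode miR-450a. All 7 were found among 2202 microRNA genes. The measurements came from microRNA sequencing of total RNA from the gastrocnemius, a large calf muscle, of B6CASTF1/J females at 25 days of age. That strain is the F1 generation from C57BL/6J and CAST/EiJ parents. There was 1 group of 2 biological replicates, without a treatment, a mutant allele or another tissue. Each library has its own female number in the labels, while the donor identifier is shared, so errors describe the spread between these 2 libraries, which may be technical.

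MicroRNAs are cut from a folded hairpin and guide the silencing of messenger RNAs, mainly through their seed, bases 2 to 8 of the mature strand. Mir322, the mouse counterpart of human MIR424, and Mir503 are known to be induced when cultured myoblasts leave the cell cycle and fuse into myotubes, and to act there on Cdc25a, the phosphatase that activates cyclin-dependent kinases. Mir351 has been linked to the survival and proliferation of muscle progenitors, and miR-542-3p to the mitotic protein survivin. The libraries were made from whole muscle, so neither dividing nor differentiating myoblasts were measured on their own.

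The mature sequences that set the seed families of the cluster are shown 5′ to 3′, with the seed in capitals. They were copied from RefSeq on build GRCm38.p6, where all 7 genes had entries, 14 in all with 13 distinct sequences. These strands are shown because the families described later rest on them, and the last 3 because they are shared, or nearly so, between hairpins of the cluster.
miR-322-5p: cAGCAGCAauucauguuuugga
miR-503-5p: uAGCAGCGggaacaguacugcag
miR-351-5p: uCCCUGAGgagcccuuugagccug
miR-542-3p: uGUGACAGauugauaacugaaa
miR-450b-5p: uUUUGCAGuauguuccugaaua
miR-450a-5p: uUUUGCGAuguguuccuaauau
miR-450a-1-3p: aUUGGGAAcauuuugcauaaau
miR-450b-3p: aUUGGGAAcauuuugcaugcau
The seeds of miR-322-5p and miR-503-5p differ at their last base by the substitution A8G, counted from the 5′ end with the base of miR-322-5p first. miR-450a-1-3p and miR-450b-3p have the same seed and 20 of 22 bases in common, with the substitutions A19G and A20C. miR-450a-5p is encoded in both Mir450-2 and Mir450-1, whereas each other mature sequence of the cluster lies in 1 GENCODE microRNA hairpin.

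All hairpins lie on the reverse strand of chromosome X in the mm10 assembly (GRCm38), so that Mir322 comes first along the direction of transcription. Mir322 (ENSMUSG00000065418.1) spans bases 53054255 to 53054349. Mir503 (ENSMUSG00000076122.1) follows after a gap of 200 bases at 53053984 to 53054054, and Mir351 (ENSMUSG00000065503.1) after a further 630 bases at 53053255 to 53053353. A gap of 3767 bases separates these from Mir542 (ENSMUSG00000076140.1), at 53049403 to 53049487. Mir450-2 (ENSMUSG00000076399.1) lies at 53048299 to 53048367, Mir450-1 (ENSMUSG00000065486.1) at 53048154 to 53048244, and Mir450b (ENSMUSG00000076050.1) at 53047997 to 53048078. The row thus covers 6353 bases, with 1095 bases for the first block and 1491 for the second. In GENCODE M21 none of the 7 hairpins lies within another annotated gene, and the long non-coding RNA Gm28730, at 53051194 to 53053159, fills part of the gap between the blocks. RefSeq extends the long non-coding RNA C430049B03Rik from 53053112 to 53057190, which takes in Mir351, Mir503 and Mir322 but not the second block.

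Depth was 1573213 counts on the strand of microRNA genes in replicate 1 and 5429127 in replicate 2, which was 3.45 times deeper. Levels are CPM, the counts of a gene per 1000000 counts on all microRNA genes of its library. The limit for a gene without a count, taken as 3 counts, was 1.91 CPM in replicate 1 and 0.553 CPM in replicate 2. Counts belong to whole hairpins and do not separate the 5p from the 3p strand. All intervals and exact tests cover counting error only, not the spread between libraries. Without molecular identifiers, repeated copies of a molecule count as separate reads, so the intervals can be too narrow.

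The cluster was well above detection in both libraries, and nearly all of it was Mir322. Each of the 7 genes reached 2 CPM in both libraries, as did 324 of the 2202 genes. Together they held 2.15% of the counts of replicate 1 (33825 counts, exact Clopper-Pearson 95% interval 2.13 to 2.17) and 1.71% of replicate 2 (92834 counts, 1.70 to 1.72), a mean of 1.93% ± 0.311 (SD, n = 2). No read was counted on the opposite strand of any member in either library. The gene-strand and either-strand counts of every member were therefore equal.

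The level of Mir322 was 19078 CPM in replicate 1 and 14852 in replicate 2, with a mean of 16965 ± 2989 CPM (SD, n = 2). It ranked 13th of all microRNA genes in replicate 1 and 16th in replicate 2. The ranks leave out reads that align to several places, so genes with copied mature sequences can be ranked too low. It supplied 88.7% of the cluster's counts in replicate 1 (exact 95% interval 88.4 to 89.1) and 86.9% in replicate 2 (86.6 to 87.1).

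Mir503, which starts 295 bases from the start of Mir322, was more than 2 orders of magnitude lower. Its level was 158 CPM in replicate 1 and 117 in replicate 2, with a mean of 137 ± 28.8 CPM. Within a library, where scaling plays no part, Mir322 had 121 times its counts in replicate 1 and 127 times in replicate 2. The partners of the best known pair thus stood far apart in counts at the hairpin level in both libraries. How evenly the hairpins of the cluster are captured in a library was not measured.

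Mir351, the third hairpin, was the second most abundant. Replicate 1 gave 1255 CPM and replicate 2 gave 1272 CPM, a mean of 1263 ± 12.0 CPM. It was the only member at which replicate 2 was the higher library. Its part of the cluster was 5.84% in replicate 1 (5.59 to 6.09) and 7.44% in replicate 2 (7.27 to 7.61), intervals that do not overlap.

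In the second block, Mir542 had 777 CPM in replicate 1 and 656 in replicate 2, with a mean of 717 ± 85.9 CPM. Mir450b, the last hairpin, had 191 CPM and 172 CPM, with a mean of 182 ± 13.8 CPM. The copies of miR-450a were the lowest members. Mir450-1 had 21.6 CPM in replicate 1, from 34 counts, and 18.6 CPM in replicate 2, from 101 counts. Mir450-2 had 19.7 CPM, from 31 counts, and 12.7 CPM, from 69 counts. Their levels are uncertain, because reads that align to several places were assigned to no gene and miR-450a-5p has the same bases at both loci. Mir450-1 also shares a stretch of 18 bases with Mir450b, so part of the reads of Mir450b can be lost in the same way. The other 4 hairpins share no stretch of 18 bases with another GENCODE microRNA hairpin, but alignment elsewhere in the genome was not checked, so reads can be lost from them too. The part of such lost reads in the low levels was not tested.

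**Figure D1:**
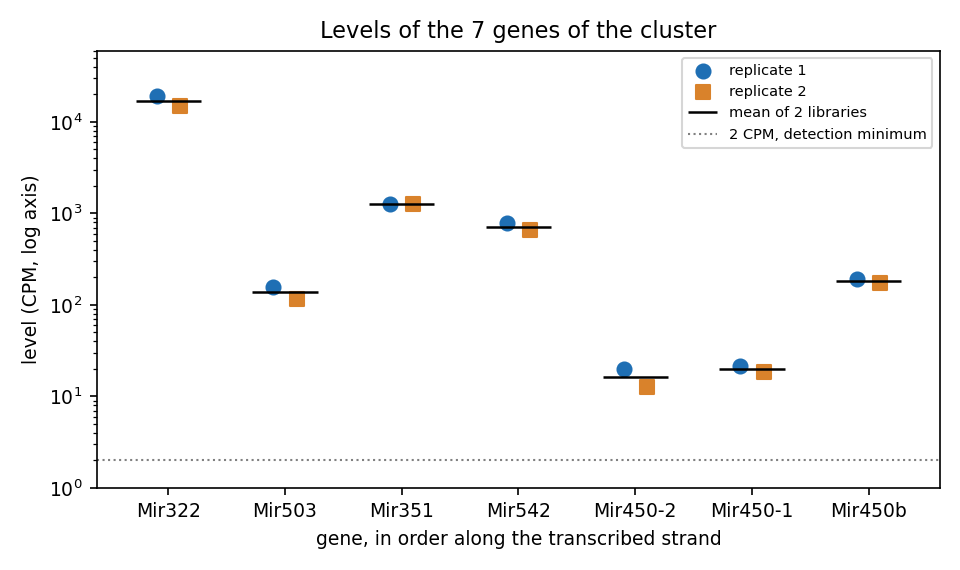
Level of each gene in CPM on a log axis, with the 7 genes in their order along the transcribed strand, 1 point per library and a bar at the mean of both. Mir322 lies at or above 14852 CPM in both libraries, Mir351 and Mir542 between 656 and 1272 CPM, Mir503 and Mir450b between 117 and 191 CPM, and the copies of miR-450a between 12.7 and 21.6 CPM.

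By mean CPM the order was Mir322, Mir351, Mir542, Mir450b, Mir503, Mir450-1 and Mir450-2. The ranges over both libraries did not overlap for any neighbours in this order except Mir450-1 and Mir450-2. Mir450b was 1.21 times Mir503 in replicate 1 and 1.47 times in replicate 2. Per base of hairpin, a scale that divides CPM by the annotated length, Mir450b had 2.33 and 2.10 CPM and Mir503 had 2.22 and 1.65, and these ranges overlapped. The other separations held on that scale too.

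Level did not fall steadily with distance from Mir322. Along the row the mean levels ran from 16965 to 137, up to 1263, then to 717, 16.2, 20.1 and 182 CPM, so that Mir503 and the copies of miR-450a were each lower than a hairpin further on. The Spearman correlation coefficient of position and level was -0.57 over the 7 hairpins in each library. It is given as a description, because hairpins of 1 locus share their libraries and can share their transcription, which was not measured. Without both copies of miR-450a, whose levels are uncertain, it was -0.40. The second block, the 4 hairpins from Mir542 on, held 4.70% of the cluster's counts in replicate 1 and 5.02% in replicate 2.

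**Figure D2:**
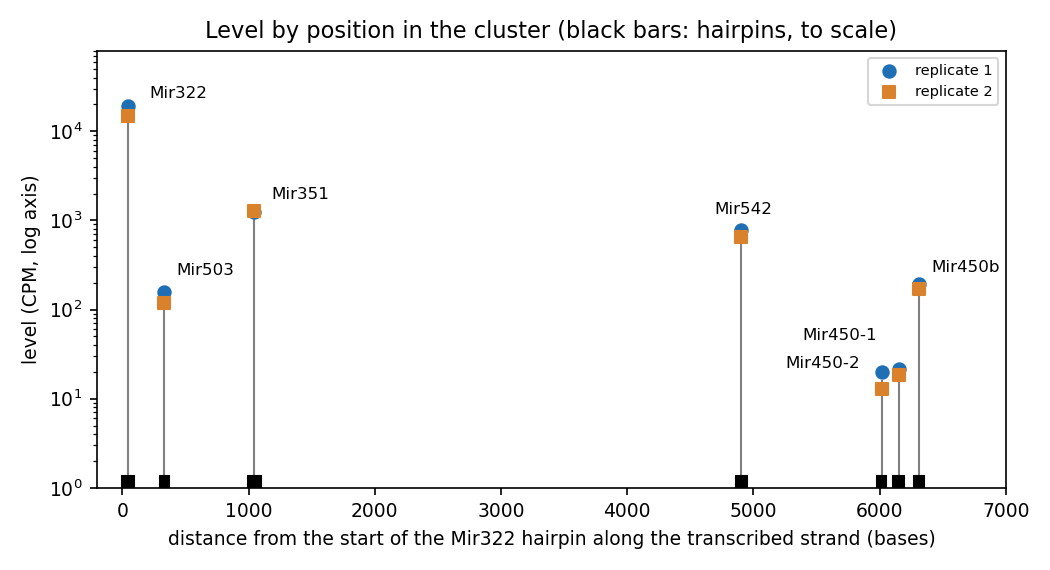
Level in CPM on a log axis against the distance in bases from the start of the Mir322 hairpin, with hairpins drawn to scale at the bottom and 1 point per library. Mir503 lies between the higher Mir322 and Mir351, and Mir542 and Mir450b lie above the copies of miR-450a between them.

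The libraries were then compared gene by gene, with a two-sided exact binomial test on counts that used library totals as the odds. It compares these 2 libraries of 1 group, not conditions. Of 364 genes with at least 10 summed counts, 45.3% were called at an adjusted p (Benjamini-Hochberg, over all 364) under 0.05, 30.2% higher in replicate 1 and 15.1% higher in replicate 2. Of the 7 members, 3 were higher in replicate 1, none in replicate 2, and 4 did not pass. The 3 called members thus made up a share near that of all tested genes. The split between the libraries depended on scaling, as it was 110 genes higher in replicate 1 and 55 in replicate 2 with library totals, 90 and 76 with TMM scaling, and 80 and 95 with DESeq2 size factors. TMM moved all log2 ratios up by 0.08 and DESeq2 by 0.13.

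The called members were Mir322, Mir503 and Mir542. The log2 ratio of replicate 2 over replicate 1 was -0.36 for Mir322 (exact 95% interval -0.38 to -0.34, adjusted p = 5.77e-287), so replicate 1 was 1.28 times higher. It was -0.43 for Mir503 (-0.64 to -0.21, adjusted p = 0.000362 in the exact test). Mir542 had a log2 ratio of -0.25 (-0.34 to -0.15, adjusted p = 1.86e-06). These calls rest on depth: the log2 ratio of a single gene between these libraries has an SD of 0.50, from a biological coefficient of variation of 24.6% estimated with edgeR, and all 3 ratios were within it. That SD comes from the same libraries and 33.8% of the tested genes lay beyond it.

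Mir351 had a log2 ratio of 0.02 (-0.05 to 0.09, adjusted p = 0.778 in the exact test). It passed as higher in replicate 2 with TMM scaling, at 0.10 (adjusted p = 0.0174, exact test), and with DESeq2 size factors, at 0.15 (adjusted p = 0.000115). Mir450b had -0.16 (-0.34 to 0.04) and Mir450-1 -0.23 (-0.79 to 0.39). Mir450-2, at -0.65 (-1.26 to 0.03, adjusted p = 0.106 in the exact test), was the single member beyond the SD of 0.50, on its 31 and 69 counts. The median log2 ratio was -0.25 over the members and -0.15 over all tested genes. Without Mir322 the members summed to 2422 CPM in replicate 1 and 2248 CPM in replicate 2.

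**Figure D3:**
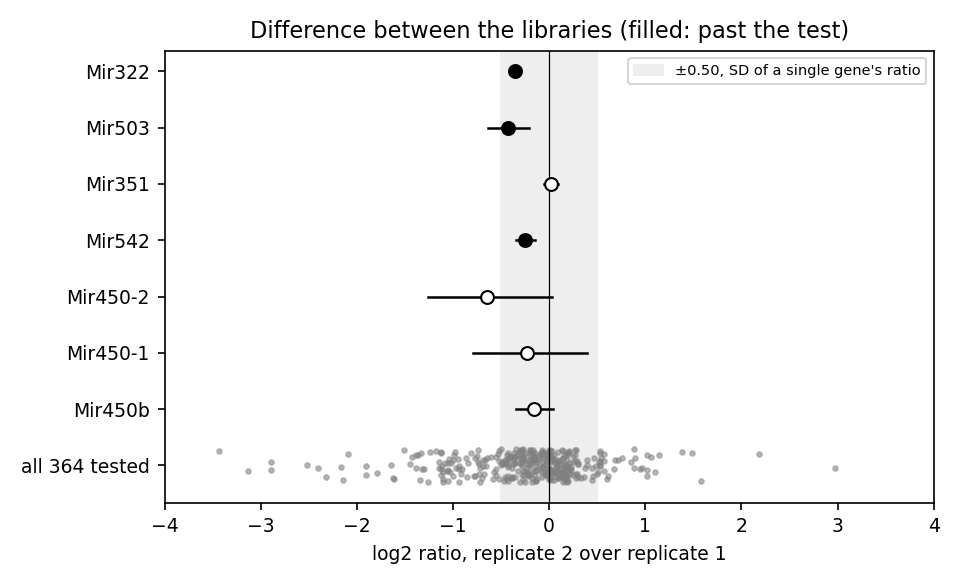
Log2 ratio of replicate 2 over replicate 1 for each member with its exact 95% interval, filled where the exact binomial test was passed, above all 364 tested genes in grey. The shaded band is the SD of 0.50 for a single gene, and 6 of the 7 members lie inside it.

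The miR-322-5p seed is shared with the miR-15, miR-16, miR-195 and miR-497 genes, microRNAs known to restrain the cell cycle. By the gene counts, which leave out reads that align to several places, Mir322 was the most abundant hairpin with this seed in both libraries. The order of Mir322 against miR-16 is therefore uncertain. Mir15a had 3769 CPM in replicate 1 and 2489 in replicate 2, Mir195a had 2804 and 2991 CPM, and Mir497 had 1931 and 2038 CPM. Mir16-1, at 786 and 548 CPM, and Mir16-2, at 203 and 139 CPM, share their mature sequence and are uncertain for the same reason as the copies of miR-450a. Mir15b had 632 and 312 CPM, and 4 further genes with the seed had no count. Mir322 held 65.3% of the counts on genes with this seed in replicate 1 and 63.6% in replicate 2, a share that lost reads of miR-16 would lower. The mature strands of the next 3 genes are shown to set their seed beside that of miR-322-5p.
miR-15a-5p: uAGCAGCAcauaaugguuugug
miR-195a-5p: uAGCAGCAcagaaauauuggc
miR-497a-5p: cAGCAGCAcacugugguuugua
Among the 6 other tested genes with the seed, Mir15a, Mir15b, Mir16-1 and Mir16-2 were higher in replicate 1, as Mir322 was, with log2 ratios from -1.02 to -0.52. Mir195a and Mir497 were higher in replicate 2, at 0.09 and 0.08. These 4 and 2 calls stand beside 30.2% (replicate 1) and 15.1% (replicate 2) of all tested genes. Their numbers were the same with TMM and DESeq2 scaling.

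The miR-351-5p seed is that of miR-125, a family with roles in development and differentiation. Mir125a was above Mir351, at 3766 CPM in replicate 1 and 3211 CPM in replicate 2. Mir125b-1, at 256 and 246 CPM, and Mir125b-2, at 169.7 and 147 CPM, share their mature sequence and are uncertain. Mir351 held 23.0% of the counts on genes with this seed in replicate 1 and 26.1% in replicate 2. Lost reads of miR-125b would lower this share and could change the order within the family. The strand of Mir125a, the highest gene by these counts, differs from miR-351-5p after the seed.
miR-125a-5p: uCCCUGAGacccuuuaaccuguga
No microRNA gene outside the cluster carries the seed of miR-503-5p, miR-542-3p, miR-450b-5p or miR-450a-5p in the RefSeq table.

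**Figure D4:**
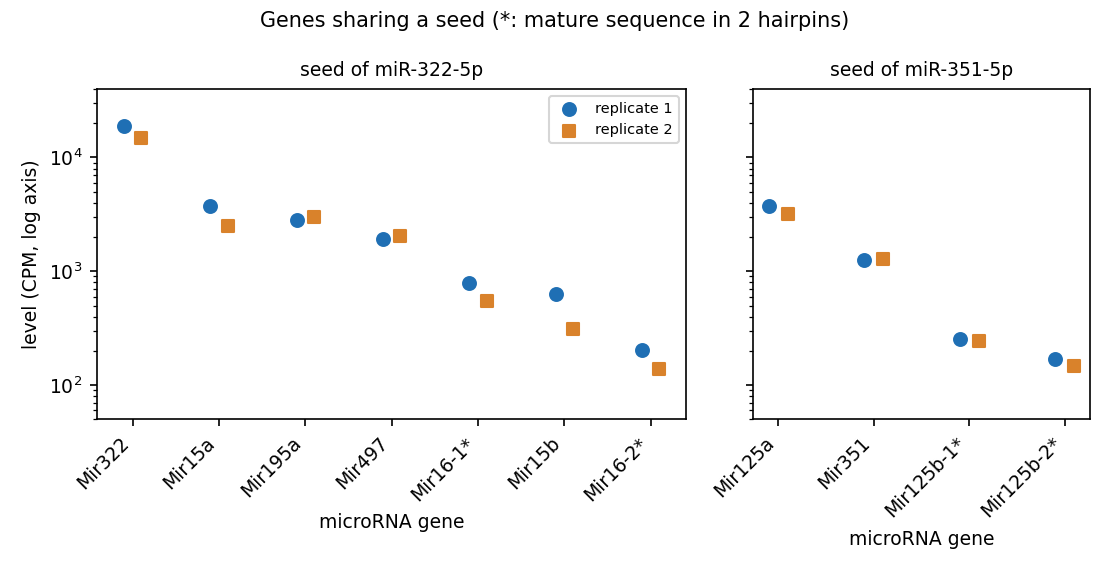
Level in CPM on a log axis of the genes that share the seed of miR-322-5p (left) or miR-351-5p (right), 1 point per library, with genes at 0 left out. By these counts Mir322 is the highest of its family, from 14852 to 19078 CPM, and Mir351 is second to Mir125a. Reads that align to several places are left out, so the order against miR-16 and miR-125b is uncertain.

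Because the cluster is known for cell-cycle exit, the 3′ UTRs of 6 cell-cycle genes were searched for the match of each seed. These were Cdc25a, Ccnd1 and Ccne1 (cyclins D1 and E1), Cdk6 (a cyclin-dependent kinase), Wee1 (an inhibitory kinase) and Chek1 (a checkpoint kinase), each with its longest GENCODE M21 3′ UTR, on the strand of the transcript. The match of miR-322-5p, TGCTGCT, was present in all 6. The match of miR-503-5p, CGCTGCT, was present in 1 of the 6, Ccnd1. The 6 genes were picked by hand, and Cdc25a is the known target named above. These counts therefore do not test whether matches are frequent in cell-cycle genes. The motifs share their last 6 letters, which pair with all but the last base of either seed, and differ in the first. The full matches cannot lie at the same place. Each TGCTGCT nevertheless holds a shorter match of miR-503-5p, of those 6 letters, also in Cdc25a. Such shorter matches were not counted. Of the 6668 genes whose 3′ UTR is as long as that of Cdc25a (1676 bases) or longer, 25.9% held TGCTGCT and 5.01% CGCTGCT within that length. For Cdk6, with 10217 bases, the share with TGCTGCT was 80.7%, and for Ccne1, with 531 bases, 9.92%. It was 19.6% for Wee1, 28.5% for Chek1 and 37.1% for Ccnd1, and for Ccnd1 the share with CGCTGCT was 7.07%.

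The sites of Cdc25a and the miR-503-5p matches of Ccnd1 are shown with the match in capitals and 15 bases before it. They are descriptions of the reference sequence, and no messenger RNA was measured here.
Cdc25a, chr9:109892550-109892572, forward strand: gaaaagccgcccaagTGCTGCTg
Cdc25a, chr9:109892855-109892877, forward strand: gctgcagaccagtatTGCTGCTa
Ccnd1, chr7:144930870-144930892, reverse strand: cggctcctctcatggCGCTGCTa
Ccnd1, chr7:144930793-144930815, reverse strand: ctttcacgttgttttCGCTGCTa
The Cdc25a matches start at bases 346 and 651 of its 3′ UTR, and those of Ccnd1 at bases 1730 and 1807.

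The cluster was next set beside lists of microRNAs linked to dividing cells and to muscle, whose counts of calls stand against a background of 30.2% (replicate 1) and 15.1% (replicate 2) of all tested genes. The clusters of Mir17, Mir106a and Mir106b, linked to proliferation, summed to 8183 CPM in replicate 1 and 5557 CPM in replicate 2. Replicate 1 was the higher library at 8 of their 12 tested genes and replicate 2 at none, or at 1 with TMM or DESeq2 scaling, and the median log2 ratio was -0.61. Mir17 had 2067 and 1643 CPM, Mir93 2134 and 1336 CPM, and Mir20a 1415 and 968 CPM. Of 4 genes linked to muscle stem cells, replicate 1 was higher at 2 and the other 2 did not pass, with a median of -0.80. Mir221 had 622 and 324 CPM, Mir222 96.6 and 52.9 CPM, and Mir31, which did not pass, 14.6 and 9.39 CPM. The sums can be too low, because Mir92-1 and Mir92-2, and likewise Mir19b-1 and Mir19b-2, share a mature sequence.

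Genes linked to muscle differentiation were called in both directions. Of 10 in the test, 5 had the higher level in replicate 2 and 3 in replicate 1, or 2 in replicate 1 with DESeq2 size factors, against 15.1% and 30.2% of all tested genes, and the median log2 ratio was 0.15. Mir206, a microRNA specific to skeletal muscle that checks the tissue label, was by far the highest of them, at 34864 CPM in replicate 1 and 72482 in replicate 2. The copies of miR-1a and miR-133a share their mature sequences and have uncertain levels. Mir208b, of the slow myosin gene Myh7, had 219 and 994 CPM, and Mir486, of the ankyrin gene Ank1, 651 and 717 CPM. Mir322 was thus higher in the library in which Mir206 was lower. With 2 libraries this is a side by side of values and no test of a relation.

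**Figure D5:**
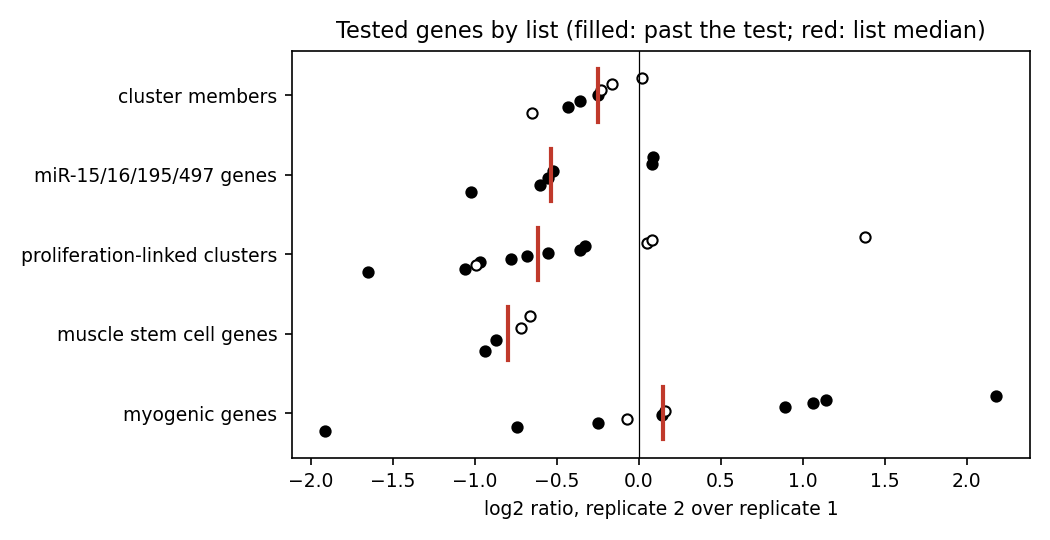
Log2 ratio of replicate 2 over replicate 1 for the tested genes of 5 lists, filled where the exact binomial test was passed, with the list median in red. The cluster median is -0.25, the muscle stem cell list is at -0.80 and the myogenic list at 0.15.

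Markers of other cells also differed between the libraries, with the same shares of all tested genes as background, 30.2% and 15.1%. The smooth muscle and fibroblast list summed to 132936 CPM in replicate 1 and 63422 CPM in replicate 2, with 3 of 5 tested genes higher in replicate 1 and 1 in replicate 2. Most of that sum was Mir143, at 127590 and 59272 CPM. The gene higher in replicate 2 was Mir214, at 1674 and 2355 CPM. Reads that align to several places are left out, so genes of any list with copied mature sequences can be too low. The erythroid list summed to 2703 and 587 CPM (2 of 2 higher in replicate 1), the epithelial list to 518 and 255 CPM (7 of 8, or 6 with DESeq2 size factors) and the neural list to 1590 and 758 CPM (1 of 3). Of the neural sum, Mir338 alone gave 1581 and 749 CPM. Of the 9 neural genes, 4 were at 0 in both libraries, Mir9-2, Mir124a-1, Mir124a-2 and Mir124a-3, whose mature sequences have copies and whose reads can be lost. The immune list had 3096 and 2566 CPM (3 of 5 higher in replicate 1 and 1 in replicate 2, 2 and 1 with TMM, 2 and 2 with DESeq2 size factors), and endothelial Mir126a was higher in replicate 2. Their part in the differences of the cluster was not tested. In whole muscle, fewer cells of a type and less RNA per cell cannot be told apart.

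The genes whose level was most like that of Mir322 over both libraries, by Euclidean distance in log2(CPM + 1), were Mirlet7b, at a distance of 0.28, Mir30a at 0.31, Mir30e at 0.33, Mirlet7d at 0.39 and Mir411 at 0.50. For Mir503 they were Mir350, at 0.07, Mir495 at 0.18, Mir666 at 0.20, Mir188 at 0.23 and Mir339 at 0.26. Mir350 had 160.2 CPM in replicate 1 and 112 in replicate 2, beside 158 and 117 CPM for Mir503. These are likenesses of level over 2 libraries only.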

How the data were processed

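MicroRNA libraries with a size range below 30, per the labels, were deposited as 1 table of raw read counts per library, without a header. From the values, its 3 columns count either-strand, gene-strand and opposite-strand reads. Assembly (mm10) and annotation (GENCODE M21) are as stated in readme files deposited beside them. How reads were aligned, counted and filtered is not given in the sources used here. Each of 2202 identifiers matched GENCODE M21.

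Gene-strand counts were scaled to CPM over all microRNA genes, without the 4 tally rows; detection meant 2 CPM in both libraries. Genes with 10 or more summed counts were compared by a two-sided exact binomial test (scipy 1.17.1) with Benjamini-Hochberg adjustment. The code was run on simulated counts without spread between libraries beyond counting error. That run cannot show how the test behaves on these libraries. Log2 ratios used an offset of 0.5 counts. The coefficient of variation, TMM and size factors came from edgeR 4.0.16 and DESeq2 1.42.0 in R 4.3.3, over detected genes. With 1 group, no test between conditions was possible. The members and lists were chosen with earlier results of these data known. Genes were named by rule: members, genes with a member's seed, the 3 highest of a list and the 5 nearest in level to Mir322 and Mir503. Alternatives were hairpin length, the either-strand column, a denominator of all aligned reads, other scalings, minimums and offsets, and each replicate alone. The choice of the 6 cell-cycle genes was made after the count tables were seen.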

Additional observations from a re-analysis of the deposited data

Results flagged for a closer look

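The tables tally reads with several alignments apart from every gene: 68.6% of the reads of replicate 1 and 69.7% of those of replicate 2. They are a signal outside the gene counts compared here. Their genes are not named, so how many belong to miR-450a-5p, which lies in both Mir450-1 and Mir450-2, was not tested.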

How the results depend on the processing

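All 7 members stayed detected at minimums of 1 and 10 CPM and with the either-strand column. Mir322 averaged 22142 CPM with the either-strand column, whose library totals are smaller, and 3994 CPM with all aligned reads as the denominator, and the cluster share was then 2.52% and 0.454%. Without 1 of the replicates these are the values of the other, 14852 to 19078 CPM and 1.71 to 2.15%. The Spearman correlation of position and level was -0.40 without both copies of miR-450a. The log2 ratio of Mir322 lay between -0.36 and -0.23 over the scalings, columns, filter and offset tried, past the test in each, and Mir503 and Mir542 also stayed past it. Mir351 passed as higher in replicate 2 with TMM (0.10) and DESeq2 (0.15) scaling, which moved all ratios up. Depth limits Mir450-1 and Mir450-2, with 34 and 31 counts in replicate 1. No paired analysis was possible because both libraries belong to 1 group.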

Other observations

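On the X chromosome, 34 of 142 microRNA genes were detected in both libraries. The cluster held 56.7% of the counts on X-linked microRNA genes in replicate 1 and 52.4% in replicate 2. By these counts Mir322 was the highest X-linked gene. Mirlet7f-2 followed at 4629 CPM in replicate 1 and 4543 in replicate 2, and Mir98 at 2758 and 2735 CPM. Reads that align to several places are left out. X-linked genes with copied mature sequences can therefore be too low, and the cluster's share too high. Of 29 X-linked genes outside the cluster in the test, 11 had their higher level in replicate 1 and 3 in replicate 2 with library totals, beside 30.2% and 15.1% of all tested genes. With TMM the numbers were 10 and 5, and with DESeq2 size factors 9 and 6.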
